A study of Mus musculus with 33 samples.

Results

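Pericytes of the mouse colon mucosa were picked from a droplet single-cell RNA library of whole mesenchyme, in which every captured transcript is counted once through its unique molecular identifier (UMI). Cells were barcodes that reached 1000 UMIs and 500 genes with no more than 20% of the UMIs from mitochondrial genes. A cell was a pericyte when Rgs5, Notch3, Kcnj8, Abcc9, Higd1b and Ndufa4l2 together gave at least 5 UMIs (the pericyte score, P) and more than Myh11, Actg2, Des, Cnn1 and Synpo2 together (the muscle score, M). It also had fewer than 2 UMIs of the endothelial genes Pecam1 and Cdh5 and under 0.4% of its UMIs from the fibroblast gene Adamdec1. The rule found 76 pericytes among 6793 cells, a share of 1.12% (exact 95% binomial interval 0.882% to 1.40%). They were set against 181 smooth muscle cells (M of at least 5 and no lower than P) and against all 6717 other cells.

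The colons were those of adult male and female mice, stripped of the outer muscle layer before digestion, and the sort kept cells without EpCAM (epithelium) and without CD45 (leukocytes). The library's genotype is labelled control with no treatment, and 8000 cells were loaded. The same rule was also applied to 2 libraries of cells sorted for a low level of green fluorescent protein (GFP-low) from PdgfraH2BeGFP mice, which make a nuclear reporter from the locus of the fibroblast receptor gene Pdgfra. The sources used here do not give the gate limits or the number of animals behind a library. Because the pericytes come from 1 library, no test was made: levels are CPM, the UMIs of a gene over the summed cells scaled to 1000000 UMIs in all, and every interval covers counting error only.

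The whole mesenchyme library held 41863444 UMIs, and 6902 barcodes reached 1000 UMIs. The 76 pericytes held 268601 UMIs with a median of 3150.5 UMIs, 1487.5 genes and 6.50% mitochondrial UMIs per cell, against medians of 4449 UMIs, 1885 genes and 4.07% in the other cells. A count of 0 in the pericytes is read as under a floor of 3 counts, or 11.2 CPM. Of the cell barcodes 6 and 11 were shared with the GFP-low libraries, none of them a pericyte barcode.

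Pericytes are mural cells: they lie in the basement membrane of capillaries and small venules, touch the endothelial cells, and with vascular smooth muscle form the wall of the vessel. Endothelial cells recruit them with the growth factor PDGF-B, which binds the receptor PDGFRβ on pericytes, while pericytes send angiopoietin 1 to the endothelial receptor Tie2 (Tek). Notch3 is the Notch receptor of mural cells, and Kcnj8 with Abcc9 form their ATP-sensitive potassium channel, through which metabolic state and vasodilators set the membrane potential.

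Among the 6 rule genes Rgs5, a regulator that shortens G protein signals, gave 78.9% of all score UMIs and was counted in 73 of 76 pericytes. Notch3 was counted in 53 pericytes, Ndufa4l2 (a paralog of a mitochondrial respiratory subunit) in 38, Abcc9 in 32, Kcnj8 in 24 and Higd1b in 4. In pericytes the summed score genes stood at 7144 CPM, against 413 CPM in smooth muscle cells and 82.2 CPM in all other cells. P ranged between 5 and 82 UMIs per pericyte with a median of 18, and M between 0 and 39 with a median of 2.50. These values chose the cells and are given as a description.

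**Figure D1:**
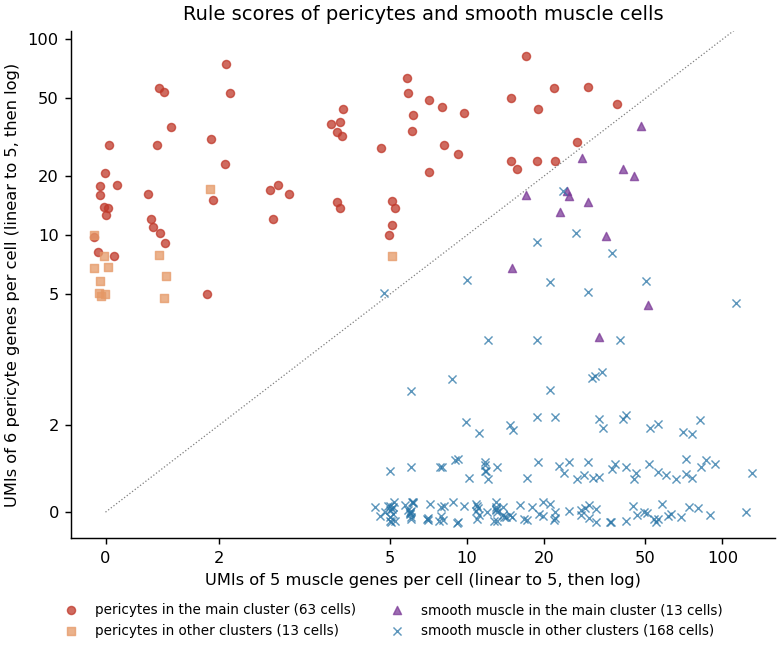
Pericyte score P (vertical) against muscle score M (horizontal) in UMIs per cell for the 76 pericytes and the 181 smooth muscle cells, both axes linear up to 5 and logarithmic above, with a small random offset of the points and the line P = M dotted. The 63 pericytes of the main cluster reach P of 82 and lie above the line, the 13 smooth muscle cells of the same cluster lie on it or below it with P between 4 and 36, and most other smooth muscle cells have P of 0.

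Of the score genes, 4 of 6 had an entry in the RefSeq promoter table (build GRCm38.p6, which is the mm10 build of the counts). Some of them lie next to a gene of like function: Rgs5 and Rgs4 are 45663 bases apart on chromosome 1, and the 2 channel genes Kcnj8 and Abcc9 are 16247 bases apart on chromosome 6, each with 0 protein-coding genes between them. The 250 bases before the start of these genes and of Notch3 in the promoter table are printed 5′ to 3′ on the strand of the gene, because the results turn on the levels of these genes. Capitals mark TGGGAA, the core letters bound by the Notch partner RBPJ, and ACGTG or GCGTG, the core letters bound by hypoxia-inducible factors, on either strand; the 2 kinds of motif do not overlap in these sequences. The start used for Abcc9 lies inside the gene's span in the RefSeq gene table, so its window is not before the outermost start.

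Rgs5, chr1:169655251-169655500, + strand: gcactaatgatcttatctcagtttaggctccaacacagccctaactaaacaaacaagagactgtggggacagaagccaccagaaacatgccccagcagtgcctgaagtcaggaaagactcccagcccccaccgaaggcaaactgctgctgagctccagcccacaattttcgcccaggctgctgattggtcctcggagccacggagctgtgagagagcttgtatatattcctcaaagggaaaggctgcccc
Rgs4, chr1:169747643-169747892, - strand: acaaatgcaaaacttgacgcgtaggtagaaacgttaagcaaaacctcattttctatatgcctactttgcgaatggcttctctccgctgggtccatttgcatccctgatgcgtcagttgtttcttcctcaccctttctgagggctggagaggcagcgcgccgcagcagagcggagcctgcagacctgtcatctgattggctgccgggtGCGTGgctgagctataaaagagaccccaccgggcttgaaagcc
Kcnj8, chr6:142571615-142571864, - strand: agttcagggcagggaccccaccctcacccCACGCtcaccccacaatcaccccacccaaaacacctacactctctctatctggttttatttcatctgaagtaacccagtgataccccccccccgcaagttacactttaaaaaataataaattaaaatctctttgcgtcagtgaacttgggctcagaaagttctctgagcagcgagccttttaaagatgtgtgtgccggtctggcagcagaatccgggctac
Abcc9, chr6:142702275-142702524, - strand: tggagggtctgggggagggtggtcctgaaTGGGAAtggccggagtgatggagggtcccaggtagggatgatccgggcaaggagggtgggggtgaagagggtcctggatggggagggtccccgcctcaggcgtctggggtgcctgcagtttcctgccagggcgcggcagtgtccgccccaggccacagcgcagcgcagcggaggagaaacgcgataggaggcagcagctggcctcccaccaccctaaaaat
Notch3, chr17:32166891-32167140, - strand: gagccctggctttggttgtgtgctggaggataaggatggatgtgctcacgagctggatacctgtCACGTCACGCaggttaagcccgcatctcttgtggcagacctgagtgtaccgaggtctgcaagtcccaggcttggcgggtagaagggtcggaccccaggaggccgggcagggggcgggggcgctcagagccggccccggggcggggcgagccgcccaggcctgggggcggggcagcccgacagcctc

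TGGGAA was found once, before Abcc9, and 21.6% of the 32851 promoters in the table hold it in the same window. The hypoxia letters were found at 1 place each before Rgs4 and Kcnj8 and at 2 adjoining places before Notch3, and 38.6% of all promoters hold them. Before Rgs5 neither motif was found in this window.

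The rule's cells were not all alike. When all cells were clustered with the 14 genes of the rule left out, 63 of the 76 pericytes fell into 1 cluster of 86 cells, here called the main cluster, together with 13 smooth muscle cells, 7 cells with high Adamdec1 and 3 remaining cells. The other 13 pericytes were spread over 7 clusters made mostly of fibroblasts or other cells. They were deeper, with a median of 6606 UMIs per cell against 2586 in the main cluster, and had a lower P, with a median of 7 UMIs against 24. Their summed fibroblast markers (Pdgfra, Dpt, Lum, Dcn, Col1a1, Cd81, Pi16, Scara5) stood at 8763 CPM, against 1276 CPM in the 63 and 10189 CPM in all other cells. They held 506 of the 650 UMIs of the matrix proteoglycan gene Dcn and 50 of the 66 UMIs of Pdgfra, and 0 UMIs of the pericyte genes Cox4i2, Rgs4 and Ndufa4l2. They also held 22 of the 59 UMIs of the rule gene Kcnj8. Of 15 pericyte markers outside the rule they had UMIs of 11, among them Gm13889 in 9 of the 13 cells. These markers summed to 1380.0 CPM, against 7160 CPM in the 63 and 1293 CPM in all other cells. The 13 were not uniform. The cell with P of 17 had 1 UMI of Pdgfra, Dpt, Lum and Scara5 together, and a cell with 6 Pdgfrb UMIs had none. The clustering could use the marker genes outside the rule, so their levels describe the split and give no support for the label. Values of the 63 cells stand beside those of all 76 where they differ in direction or are lower by more than 1.5 times.

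Both kinds of cell met near the threshold. The 5 pericytes with P of 5 had 1 cell in the main cluster, and the 2 with P of 6 had none. Just outside, the 10 cells with P of 4 had 2 in the main cluster and the 13 with P of 3 had none; Dcn stood at 4272 CPM in the cells with P of 5 and at 8758 CPM in those with P of 4. Of 132 cells that met both score conditions, the endothelial limit removed 14 and the Adamdec1 limit a further 42.

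Markers of epithelial, red blood, mesothelial, immune and cycling cells were at or near 0 in the pericytes, and those of other mesenchymal and vascular cells were not all low. All 5 epithelial markers, all 4 globin genes and all 3 mesothelial markers had 0 UMIs, the 6 immune markers had 1 UMI and the 5 cell cycle markers 1 UMI. All other cells were low too, at a summed 0.354, 0.451, 0.0644, 14.3 and 5.28 CPM in that order, so these values do not set the pericytes apart. The 9 blood endothelial markers summed to 447 CPM in pericytes and 457 CPM in the main cluster, against 304 CPM in smooth muscle cells and 1061 CPM in all other cells, and in the main cluster Kdr, Cldn5, Egfl7 and Flt1 had 0 UMIs. Summed lymphatic markers stood at 26.1 CPM in pericytes and 236 CPM in all other cells, and telocyte markers at 171 and 363 CPM, with Foxl1 at 0. Esam, an adhesion molecule known from both endothelium and pericytes, held 57 of the pericytes' 120 endothelial marker UMIs. The 8 smooth muscle markers summed to 5339 CPM in pericytes, against 16266 CPM in smooth muscle cells and 1099 CPM in all other cells, with Hhip and Ckm at 0 UMIs. Of the markers of interstitial cells of Cajal, the gut pacemaker cells, Kit had 0 UMIs, whereas Ano1, a calcium-activated chloride channel also known from vascular mural cells, was at 145 CPM in pericytes against 21.6 CPM in smooth muscle cells. The 5 glial markers summed to 290.4 CPM in pericytes against 127 CPM in all other cells. The 3 Cajal markers summed to 179 CPM in pericytes against 77.4 CPM in all other cells. In the main cluster Sox10, S100b and Gfap were at 0 UMIs.

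Over all genes outside the rule with a mean level of at least 20 CPM, 619 of 6632 (9.33%) were at least 2-fold higher in pericytes than in smooth muscle cells and 626 (9.44%) at least 2-fold lower, with a median log2 ratio of -0.02. Against all other cells 634 of 6494 (9.76%) were higher and 547 (8.42%) lower, with a median of 0.09. In the 63 cells of the main cluster the counts were 836 and 974 against smooth muscle cells and 945 and 916 against all other cells. These shares are the background for the counts of gene lists below, in which higher and lower mean at least 2-fold.

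Pericyte markers that the rule did not use were high in the same cells. Of 15 such markers 13 were measured; 12 were higher than in smooth muscle cells and 1 lower (median log2 ratio 2.59), and 11 were higher than in all other cells and none lower (median 3.10). Pdgfrb, the receptor for PDGF-B, stood at 525 CPM (95% interval 442 to 619) in pericytes, against 88.7 CPM in smooth muscle cells and 92.8 CPM in all other cells, a ratio of 5.92 (4.48 to 7.87) to smooth muscle. It was counted in 61 of 76 pericytes, with a median of 2 and at most 8 UMIs per cell, and in 55 of 181 smooth muscle cells. Vtn, which encodes the plasma and matrix protein vitronectin, was at 119 CPM (95% interval 81.5 to 168) in pericytes and at 4.33 CPM in smooth muscle cells and 0.901 CPM in all other cells. Rgs4, the neighbour of Rgs5 printed above, was at 558 CPM (95% interval 473 to 655), against 54.1 CPM in smooth muscle cells and 6.56 CPM in all other cells. The proteoglycan gene Cspg4 (NG2) and the adhesion gene Mcam (CD146) differed less, at 171 and 194 CPM in pericytes against 69.2 and 81.2 CPM in smooth muscle cells. In the 42 smooth muscle cells that met the pericytes' endothelial and Adamdec1 limits they were near level, at 165 and 193 CPM. P2ry14, a receptor for UDP-sugars, was the marker lower than in smooth muscle, at 74.5 CPM against 205 CPM. Tbx18, a transcription factor of mural cells in several organs, had 0 UMIs in pericytes and in every other class.

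**Figure D2:**
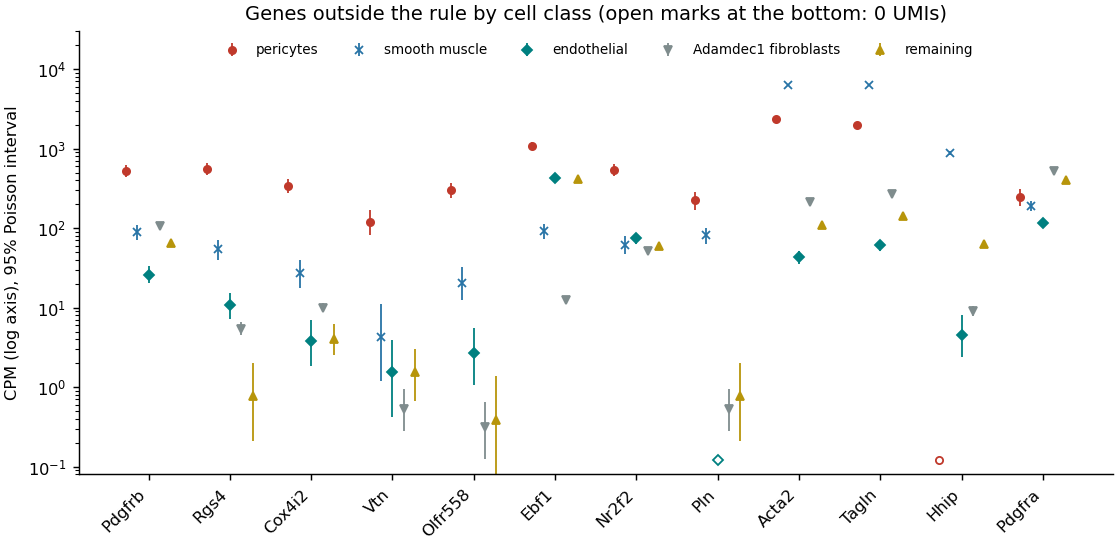
Levels in CPM (log axis) of 12 genes that the rule did not use, in pericytes, smooth muscle cells, endothelial cells, Adamdec1 fibroblasts and remaining cells of 1 library, with 95% Poisson intervals; open marks at the bottom stand for 0 UMIs. Pdgfrb, Rgs4, Cox4i2, Vtn, Olfr558, Ebf1, Nr2f2 and Pln are highest in pericytes, Acta2 and Tagln are highest in smooth muscle cells with pericytes next, and Hhip has 0 UMIs in pericytes.

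Shares of cells with a UMI of Pdgfrb or Cox4i2 went the same way at equal depth. With every cell thinned to 1000 UMIs, Pdgfrb was counted in 43.4% of pericytes (exact 95% interval 32.1% to 55.3%), against 6.63% of smooth muscle cells and 1.50% of endothelial cells. Without thinning the shares were 80.3%, 30.4% and 6.42% at median depths of 3150.5, 4483 and 3157 UMIs. Cox4i2 was counted in 27.6% of thinned pericytes, against 1.66% of smooth muscle cells and 0.683% of endothelial cells, and without thinning in 44.7%, 4.97% and 1.09%. Endothelial cells should lack both genes, and their share was taken as background, although P reached 33 in that class. The pericyte shares were above the endothelial ones. Of thinned Adamdec1 fibroblasts 10.6% had a UMI of Pdgfrb, more than of smooth muscle cells, and 0.593% had a UMI of Cox4i2. Not every gene kept its order. Jag1 was counted in 25.0% of pericytes and 15.5% of smooth muscle cells without thinning, and in 2.63% and 5.52% with thinning. Mcam was counted in 17.1% of thinned pericytes and 17.8% of thinned endothelial cells.

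Notch genes outside the rule were high in pericytes. Of 17 members 10 were measured against smooth muscle cells, with 6 higher and 1 lower (median log2 ratio 1.52), and 11 against all other cells, with 6 higher and 1 lower (median 1.18). Nrarp, a feedback inhibitor switched on by Notch, stood at 101 CPM (95% interval 66.2 to 146) in pericytes, against 7.57 CPM in smooth muscle cells and 8.88 CPM in all other cells. The Notch target genes Heyl and Hey2, which encode transcriptional repressors, were at 52.1 and 48.4 CPM in pericytes, against 8.66 and 16.2 CPM in smooth muscle cells and 4.12 and 3.28 CPM in all other cells. Jag1, a Notch ligand, was at 104 CPM (95% interval 69.3 to 151) in pericytes, above its 37.9 CPM in smooth muscle cells and 58.1 CPM in endothelial cells; with all cells thinned to 1000 UMIs its ratio to smooth muscle turned, to a log2 ratio of -1.21. Dll4, a ligand of endothelial cells, was at 18.6 CPM in pericytes on 5 UMIs and at 222 CPM in endothelial cells. Nrip2, a nuclear receptor interacting protein grouped here with the Notch list, was at 134 CPM in pericytes, against 40.0 CPM in smooth muscle cells and 1.67 CPM in all other cells.

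In most of the mural and endothelial pairs the ligand and the receptor were highest in different classes. The exception was Jag1 with Notch3, since both were higher in pericytes than in endothelial cells. Pdgfrb was at 525 CPM in pericytes and 26.0 CPM in endothelial cells. Its ligand gene Pdgfb was at 11.2 CPM in pericytes (3 UMIs) and 218 CPM in endothelial cells. Pdgfa, which encodes the ligand of the fibroblast receptor PDGFRα, stood at 268 CPM (95% interval 209.7 to 338) in pericytes, against 64.9 CPM in smooth muscle cells, 48.1 CPM in endothelial cells and 12.1 CPM in Adamdec1 fibroblasts. Pdgfc, a ligand of the same receptor, went the other way, at 7.45 CPM (2 UMIs) in pericytes against 107 CPM in smooth muscle cells. The receptor gene Pdgfra itself was at 246 CPM in the 76 cells and 89.1 CPM in the 63 of the main cluster, against 529 CPM in Adamdec1 fibroblasts.

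Angpt1, the activating ligand of Tie2, was at 70.7 CPM (95% interval 42.6 to 110.5) in pericytes, against 15.1 CPM in smooth muscle cells and 8.79 CPM in endothelial cells. In the main cluster Angpt1 was at 89.1 CPM in the 63 pericytes and 91.6 CPM (5 UMIs) in the 13 smooth muscle cells. That ratio was 0.973 (0.341 to 3.40). The receptor gene Tek was at 3.72 CPM (1 UMI) in pericytes against 177 CPM in endothelial cells. Angpt2, the context-dependent antagonist of that receptor, was at 55.8 CPM (95% interval 31.3 to 92.1) in pericytes, with all 15 UMIs in the main cluster, against 17.6 CPM in endothelial cells. Nrp1, a co-receptor of VEGF and semaphorins, was 4.05-fold (2.93 to 5.59) higher than in smooth muscle cells, and Vegfa, the main endothelial growth factor, was at 14.9 CPM in pericytes against 76.0 CPM in all other cells. Of 9 measured members of this list 4 were higher and 2 lower than in smooth muscle cells, and of 12 measured against all other cells 2 were higher and 4 lower. Ednra, an endothelin receptor known from mural cells, was at 272 CPM in pericytes, against 151 CPM in smooth muscle cells and 23.3 CPM in endothelial cells. Ednra was not confined to mural cells here, with 139 CPM in Adamdec1 fibroblasts. The ligand gene Edn1 had 0 UMIs in pericytes and 95.5 CPM in endothelial cells.

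**Figure D3:**
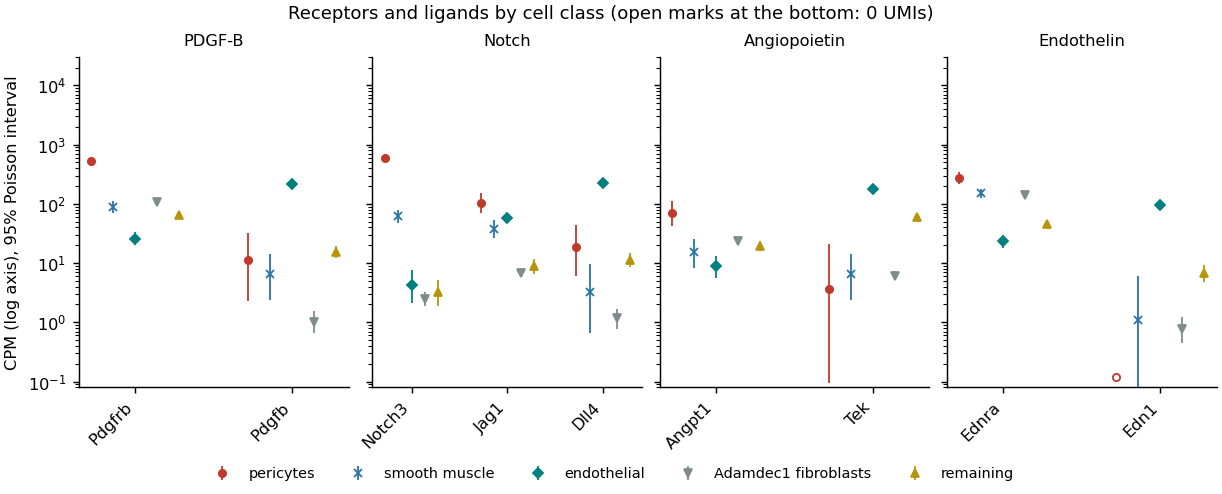
Levels in CPM (log axis, 95% Poisson intervals) of receptor and ligand genes in the 5 cell classes of 1 library; open marks at the bottom stand for 0 UMIs. Pdgfrb, Notch3, Angpt1 and Ednra are highest in pericytes, and Pdgfb, Dll4, Tek and Edn1 are highest in endothelial cells. The ligand Jag1 is higher in pericytes than in endothelial cells. Notch3 is a gene of the rule.

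Ion channel and pump genes were higher in pericytes more often than lower: 9 of 27 measured were higher and 3 lower than in smooth muscle cells (median log2 ratio 0.26), and 11 of 19 higher and 1 lower than in all other cells (median 1.60). Piezo2, a mechanically gated channel, was at 74.5 CPM (95% interval 45.5 to 115) in pericytes, against 2.16 CPM (2 UMIs) in smooth muscle cells and 21.5 CPM in all other cells. Its paralog Piezo1 was at 7.45 CPM (2 UMIs), against 33.5 CPM in smooth muscle cells. The sodium pump subunit Atp1b2 was 6.74-fold (4.04 to 11.5) higher than in smooth muscle cells. In the main cluster, however, Atp1b2 was at 256 CPM in the 63 pericytes and 366 CPM in the 13 smooth muscle cells, a ratio of 0.70 (0.406 to 1.25). The voltage-gated potassium channel Kcna5 was 3.01-fold (1.36 to 6.58) higher than in smooth muscle cells. The large-conductance calcium-activated potassium channel showed the opposite: its pore gene Kcnma1 had 0 UMIs in pericytes, at least 11.1-fold lower than the 124 CPM of smooth muscle cells with a floor of 3 counts. Its subunit Kcnmb1 was at 37.2 CPM against 99.5 CPM.

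Receptors for vasoactive signals included several that were close to absent outside the mural cells. Of 55 members 22 were measured against smooth muscle cells, with 8 higher and 4 lower (median log2 ratio 0.47), and 23 against all other cells, with 8 higher and 6 lower (median 0.28). Olfr558, an olfactory-type receptor expressed in vascular mural cells, was at 298 CPM (95% interval 236 to 371) in pericytes, against 20.6 CPM in smooth muscle cells and 1.13 CPM in all other cells. Olfr78, a related receptor reported to sense short-chain acids, was at 70.7 CPM (95% interval 42.6 to 110.5), against 5.41 CPM in smooth muscle cells and 0.29 CPM in all other cells. Adra2a, an α2-adrenergic receptor, was at 81.9 CPM (95% interval 51.3 to 124) on 22 UMIs in pericytes, had 0 UMIs in smooth muscle cells (at least 25.2-fold higher in pericytes with a floor of 3 counts) and 14 UMIs in the 6717 other cells. Npy1r, a neuropeptide Y receptor, and Ptgir, the prostacyclin receptor, were at 81.9 and 52.1 CPM in pericytes, against 5.18 and 6.40 CPM in all other cells. The receptors lower than in smooth muscle cells included F2r, the thrombin receptor, at 48.4 CPM (22.3 CPM in the main cluster) against 393 CPM, and Lpar1, a lysophosphatidic acid receptor, at 141 CPM (16.7 CPM in the main cluster) against 325 CPM.

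Genes of cyclic nucleotide and calcium signalling, a wide list that includes the pathway of nitric oxide relaxation, were frequent among the higher ones. Against smooth muscle cells 13 of 26 measured were higher and 2 lower (median log2 ratio 0.87). Against all other cells 16 of 27 were higher and 1 lower (median 1.69). Among them were the subunits of soluble guanylate cyclase Gucy1a1, Gucy1b1 and Gucy1a2 and the cyclic GMP-dependent kinase Prkg1, which were higher in both comparisons. Gucy1a2 stood at 59.6 CPM (95% interval 34.0 to 96.7) in pericytes against 7.57 CPM in smooth muscle cells, and Prkg1 at 81.9 CPM against 39.0 CPM. Pln, which encodes phospholamban, the brake of the sarcoplasmic calcium pump, was at 223 CPM (95% interval 170.5 to 288) in pericytes, against 81.2 CPM in smooth muscle cells and 2.93 CPM in all other cells. The adenylate cyclases split, with Adcy6 at 78.2 CPM in pericytes against 14.1 CPM in smooth muscle cells and Adcy5 at 44.7 CPM against 103 CPM.

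RGS proteins, which speed up the end of G protein signals, were measured for 8 of 13 members besides Rgs5; 5 were higher and 1 lower in both comparisons. Rgs16 was at 119 CPM (95% interval 81.5 to 168) in pericytes, against 4.33 CPM in smooth muscle cells and 129.9 CPM in endothelial cells. Rgs7bp, a binding partner that holds RGS proteins at the membrane, was at 216 CPM against 39.0 CPM in smooth muscle cells. In the 42 smooth muscle cells that met the pericytes' endothelial and Adamdec1 limits Rgs7bp was at 193 CPM. Rgs1 counted as higher on 13 UMIs, all of them in the 13 pericytes outside the main cluster. Rgs10 was lower, at 59.6 CPM in pericytes (22.3 CPM in the main cluster) against 518 CPM in smooth muscle cells.

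Contractile and cytoskeletal genes put the pericytes between smooth muscle cells and the rest. Against smooth muscle cells 1 of 41 measured was higher and 22 were lower (median log2 ratio -1.08), and against all other cells 17 of 37 were higher and none lower (median 0.74). Acta2, smooth muscle actin, was at 2360.4 CPM (95% interval 2180.2 to 2551) in pericytes, against 6409.9 CPM in smooth muscle cells and 368 CPM in all other cells. It was uneven among pericytes: 42 of 76 had no UMI, the median was 0 and the highest cell had 83, whereas 7 of 181 smooth muscle cells had none and their median was 22. Tagln and Myl9, an actin-binding protein and the regulatory myosin light chain, were at 2003 and 1296 CPM in pericytes, against 6287 and 2292 CPM in smooth muscle cells and 411 and 165 CPM in all other cells. Actc1, cardiac actin, had 0 UMIs in pericytes, at least 21.8-fold lower than the 243 CPM of smooth muscle cells with a floor of 3 counts. Myocd, the coactivator of smooth muscle genes, was at 14.9 CPM against 136 CPM. Nes, the intermediate filament nestin, was the member higher than in smooth muscle cells, at 134 CPM against 43.3 CPM, and it was as high in endothelial cells (133 CPM).

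Of 21 measured basement membrane genes 5 were higher and 2 lower than in smooth muscle cells (median log2 ratio 0.17), and 6 were higher and 4 lower than in all other cells (median -0.03). The laminin chain genes Lamc3 and Lamb2 stood at 74.5 and 194 CPM in pericytes, against 5.41 and 51.9 CPM in smooth muscle cells and 3.19 and 48.4 CPM in all other cells. Ntn4, a laminin-like netrin, was at 108 CPM against 19.5 CPM in smooth muscle cells, and Col4a1, the collagen IV chain found in every basement membrane, was near level, at 1005 CPM in pericytes, 1165 CPM in smooth muscle cells and 979 CPM in all other cells. Of 38 measured interstitial matrix genes 24 were lower than in all other cells and 1 higher, Vtn (median log2 ratio -1.20), and of 37 measured against smooth muscle cells 9 were lower and 6 higher (median -0.55). Fbln2, a fibulin of elastic fibres, was at 26.1 CPM in pericytes against 298 CPM in all other cells, and Postn, the matricellular protein periostin, at 495 CPM against 1588 CPM. In the main cluster both were lower still, at 5.57 and 106 CPM. Fbln1 counted as 2.31-fold (1.88 to 2.84) higher than in smooth muscle cells over all 76 cells and was lower in the main cluster, at 55.7 CPM against 254 CPM.

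Adhesion and junction genes were mixed: 8 of 29 measured were higher and 6 lower than in smooth muscle cells, and 11 higher and 6 lower than in all other cells. Cdh2, the N-cadherin of contacts between endothelium and mural cells, was at 74.5 CPM (95% interval 45.5 to 115) in pericytes, against 3.25 CPM in smooth muscle cells and 1.53 CPM in endothelial cells. The gap junction genes went opposite ways, with Gja4 (connexin 37) at 212 CPM in pericytes against 14.1 CPM in smooth muscle cells, and Gja1 (connexin 43) at 70.7 CPM against 167 CPM. The laminin receptor subunits Itga7 and Itga6 also split: Itga7 was at 78.2 CPM in pericytes and 0.764 CPM in endothelial cells, and Itga6 at 7.45 CPM in pericytes (2 UMIs, none in the main cluster) and 436 CPM in endothelial cells. Itga8, an integrin subunit that binds nephronectin and other matrix proteins, was at 63.3 CPM in pericytes against 1.58 CPM in all other cells. It was not 2-fold higher than in smooth muscle cells. In the 42 smooth muscle cells that met the pericytes' endothelial and Adamdec1 limits Itga8 was at 136 CPM.

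BMP and TGF-beta genes had 8 higher and 8 lower of 38 measured against smooth muscle cells and 4 higher and 6 lower of 37 against all other cells. Id1, a target of BMP signalling, was at 577 CPM (95% interval 489.8 to 675) in pericytes, against 75.7 CPM in smooth muscle cells and 1405 CPM in endothelial cells. Bmp4 was at 201 CPM in pericytes (39.0 CPM in the main cluster), against 728 CPM in Adamdec1 fibroblasts. The antagonists Fst and Grem1 counted as higher than in smooth muscle cells, but 38 of 40 Fst UMIs and 73 of 81 Grem1 UMIs came from the 13 cells outside the main cluster. Of the Wnt and R-spondin genes 14 and 15 were measured, none higher and 5 lower in each comparison, among them Wnt4 at 18.6 CPM in pericytes (11.1 CPM in the main cluster) against 103 CPM in smooth muscle cells and 148 CPM in all other cells.

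Mitochondrial paralogs and hypoxia genes had 14 members measured in each comparison, with 2 higher and 2 lower than in smooth muscle cells and 2 higher and 1 lower than in all other cells. Cox4i2, the alternative form of a cytochrome oxidase subunit that serves oxygen sensing, was at 343 CPM (95% interval 276 to 420.1) in pericytes, against 27.1 CPM in smooth muscle cells and 8.98 CPM in all other cells, a ratio of 12.7 (8.06 to 20.6) to smooth muscle. Its general form Cox4i1 was at 547 CPM in pericytes, 674 CPM in smooth muscle cells and 465 CPM in all other cells. Ndufa4l2, a gene of the rule, was at 454 CPM in pericytes and 3.51 CPM in all other cells. Its paralog Ndufa4, which the rule did not use, was lower in pericytes, at 85.6 CPM (50.1 CPM in the main cluster) against 415 CPM in smooth muscle cells and 199 CPM in all other cells. Higd1a, the paralog of Higd1b, did not differ by 2-fold, at 85.6, 84.4 and 74.9 CPM in pericytes, smooth muscle cells and all other cells. Epas1, the hypoxia-inducible factor 2α, was at 532 CPM in pericytes, against 195 CPM in smooth muscle cells, and was at 654 CPM in endothelial cells. In the main cluster Epas1 was at 730 CPM in the 63 pericytes and 916 CPM in the 13 smooth muscle cells, a ratio of 0.797 (0.571 to 1.13).

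Of 31 transcription factors measured against smooth muscle cells 9 were higher and 2 lower (median log2 ratio 0.37), and of 30 against all other cells 11 were higher and 4 lower (median 0.35). Ebf1, a helix-loop-helix factor also known from B cells and fat, was at 1076 CPM (95% interval 955 to 1207) in pericytes, against 90.9 CPM in smooth muscle cells, 433 CPM in endothelial cells, 12.6 CPM in Adamdec1 fibroblasts and 117 CPM in all other cells. Nr2f2 (COUP-TFII), a factor of veins and mesenchyme, was at 539.8 CPM (95% interval 456 to 635), against 61.7 CPM in smooth muscle cells and 55.4 CPM in all other cells. Ebf2 and Foxs1 followed the same order, at 55.8 and 81.9 CPM in pericytes against 0.644 and 5.95 CPM in all other cells. Foxf2, a factor of gut mesenchyme, was the opposite, at 7.45 CPM (2 UMIs, none in the main cluster) in pericytes against 117 CPM in smooth muscle cells. In the main cluster Foxs1 was at 117 CPM in the 63 pericytes and 238 CPM in the 13 smooth muscle cells, a ratio of 0.491 (0.235 to 1.07).

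Of 23 chemokine and cytokine genes measured against all other cells 12 were lower and 1 higher (median log2 ratio -1.06), and of 21 measured against smooth muscle cells 7 were higher and 5 lower (median 0.17). The gene higher than in all other cells was Il34, a ligand of the macrophage receptor CSF1R, at 93.1 CPM (95% interval 60.2 to 137) in pericytes, against 24.9 CPM in smooth muscle cells and 33.4 CPM in all other cells. Csf1, the other ligand of that receptor, was at 104 CPM in pericytes against 245 CPM in smooth muscle cells. Of 22 measured immediate early genes, which respond within minutes to stress such as tissue digestion, 3 were higher than in smooth muscle cells and none lower, and none differed by 2-fold from all other cells.

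**Figure D4:**
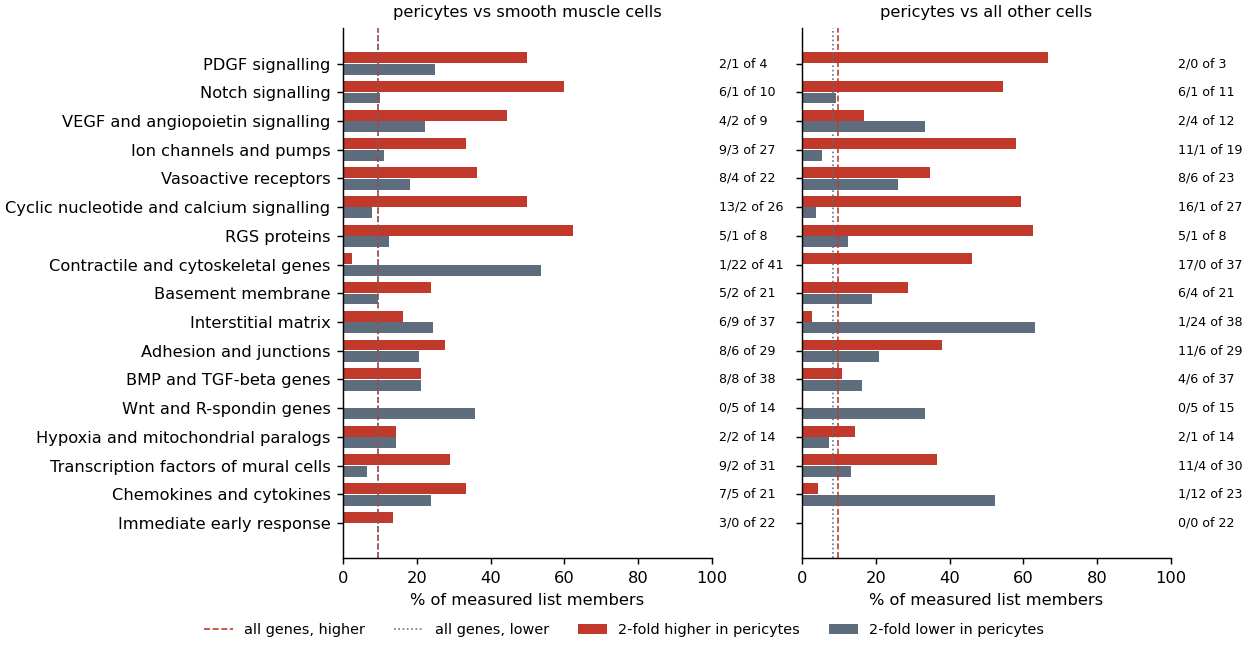
Share of the measured members of 17 gene lists that were at least 2-fold higher (red) or lower (grey) in pericytes than in smooth muscle cells (left) and all other cells (right), with the numbers higher, lower and measured at the right of each panel; the vertical lines give the shares over all genes (9.33% and 9.44%, left; 9.76% and 8.42%, right). Contractile genes are lower than in smooth muscle cells (22 of 41) and higher than in all other cells (17 of 37), and interstitial matrix genes are lower than in all other cells (24 of 38).

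Outside the lists, the genes with the largest ratios to all other cells included peptide and lipid-signalling enzymes. Cck, which encodes the peptide cholecystokinin known from gut endocrine cells, was at 112 CPM (95% interval 75.4 to 159) in pericytes, against 5.41 CPM in smooth muscle cells and 0.708 CPM in all other cells. Dgkb, a diacylglycerol kinase, and Inpp4b, a phosphoinositide phosphatase, were at 179 and 521 CPM in pericytes, against 1.45 and 7.56 CPM in all other cells. In the main cluster Dgkb was at 262 CPM in the 63 pericytes and 421 CPM in the 13 smooth muscle cells, a ratio of 0.622 (0.370 to 1.07). Cpe, a carboxypeptidase that trims peptide hormones, and Enpep, the aminopeptidase that cuts angiotensin II, were at 130.3 and 96.8 CPM, against 2.32 and 2.83 CPM in all other cells. Genes with the largest ratios to smooth muscle cells included Pcdh19, a protocadherin, at 145 CPM in pericytes against 4.33 CPM, and Apold1, an endothelial early response gene, at 462 CPM against 20.6 CPM, which was higher still in endothelial cells (956 CPM). Hhip, a decoy receptor for hedgehog ligands, was the reverse, with 0 UMIs in pericytes, at least 78.9-fold lower than the 881 CPM of smooth muscle cells with a floor of 3 counts. Tes, a focal adhesion protein, and Ntn1, the guidance cue netrin 1, were at 11.2 and 11.2 CPM (3 UMIs each) in pericytes against 172 and 159 CPM in smooth muscle cells.

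The smooth muscle class was itself mixed, which bears on every ratio to it. Of its 181 cells 141 lay in another cluster, 13 in the main cluster and 27 in 9 clusters made mostly of fibroblasts, endothelial or remaining cells. These 13 held all 25 Cox4i2 UMIs of the class, all 75 of Pln, all 19 of Olfr558, all 37 of Nrip2, all 24 of Npy1r and 49 of 50 of Rgs4, and 0 of the 814 UMIs of Hhip and 0 of the 225 of Actc1. In the 13, some of these genes stood near their pericyte level. Cox4i2 was at 513 CPM in the 63 pericytes of the main cluster and 458 CPM in the 13, a ratio of 1.12 (0.713 to 1.82). Rgs4 was at 836 and 898 CPM, a ratio of 0.931 (0.67 to 1.31). Olfr558 was at 348 CPM (210 to 543) in the 13. In main cluster pericytes with no muscle UMI, M under P/2 and M of P/2 or more, Olfr558 was at 395, 389 and 719 CPM. The Adamdec1 limit that pericytes had to meet was exceeded by 137 of the 181 smooth muscle cells. Held to the pericytes' own exclusion limits, the class shrank to 42 cells, 13 of them in the main cluster, and several ratios turned. Against those 42 cells Pln was at 223 CPM in pericytes and 426 CPM in smooth muscle cells, Hey2 at 48.4 and 79.6 CPM, Nrip2 at 134 and 210.4 CPM, Npy1r at 81.9 and 136 CPM, Kcna5 at 52.1 and 85.3 CPM, Cpe at 130.3 and 176 CPM and Itga7 at 78.2 and 85.3 CPM. Gja1 turned the other way, to 70.7 CPM in pericytes and 11.4 CPM in the 42 cells. Rgs4 and Cox4i2 stayed at least 2-fold higher in pericytes and Heyl did not, at 558, 343 and 52.1 CPM against 279, 142 and 34.1 CPM. Cspg4, Mcam and Rgs7bp did not stay 2-fold higher either, with the values given above.

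Within the main cluster, pericytes and the 13 smooth muscle cells differed in other genes. Acta2 was at 3282 CPM in the 63 pericytes and 12144 CPM in the 13 smooth muscle cells, a ratio of 0.27 (0.241 to 0.302), and Pln at 334 and 1374 CPM, a ratio of 0.243 (0.17 to 0.346). Nrip2, Hey2 and Cspg4 were also lower in the pericytes, at 195, 72.4 and 240 CPM against 678, 256 and 476 CPM. Pdgfrb was at 719 and 439.6 CPM, a ratio of 1.64 (1.05 to 2.64), and Ebf1 at 1510.0 and 1062 CPM, a ratio of 1.42 (1.07 to 1.92). Rgs16, Pcdh19, Lamc3, Piezo2, Angpt2 and Adra2a had 0 UMIs in the 13 cells, whose floor of 3 counts is 55.0 CPM, and 178, 201, 111, 94.7, 83.6 and 111 CPM in the 63 pericytes. The immediate early genes Fos and Jun, chosen after their values were seen, were at 4976 and 4664 CPM in the 63 pericytes and at 1319 and 641 CPM in the 13 cells. The median mitochondrial share was 6.78% in the 63 pericytes and 13.4% in the 13 cells, and its part in these differences was not tested.

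The cells of the main cluster were also divided by M relative to P; since these are the scores of the rule, and contractile genes are known to be expressed together, the levels are a description only. Acta2 was at 169 CPM (3 UMIs) in the 11 pericytes with no muscle UMI, 2631 CPM in the 44 with M under P/2, 7875 CPM in the 8 with M of P/2 or more and 12144 CPM in the 13 smooth muscle cells. Pln was at 0, 168, 1242 and 1374 CPM. Pdgfrb ran the other way, at 902, 732, 555 and 439.6 CPM, though its intervals overlap from each group to the next. Other pericyte genes did not fall in that order: Notch3 was at 902, 831, 980.2 and 989 CPM, Ndufa4l2 at 338, 732, 653 and 678 CPM, Cox4i2 at 169, 526, 653 and 458 CPM and Cspg4 at 564, 183, 294 and 476 CPM. Rgs4 stayed between 816 and 915 CPM in all 4 groups. Of the rule genes Abcc9 was at 620.3 CPM (11 UMIs), 290 CPM, 65.3 CPM (2 UMIs) and 18.3 CPM (1 UMI). The 11 cells without a muscle UMI were also the shallowest, with a median of 1419 UMIs, against 3010.0, 4038.5 and 4327 UMIs in the next 3 groups.

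**Figure D5:**
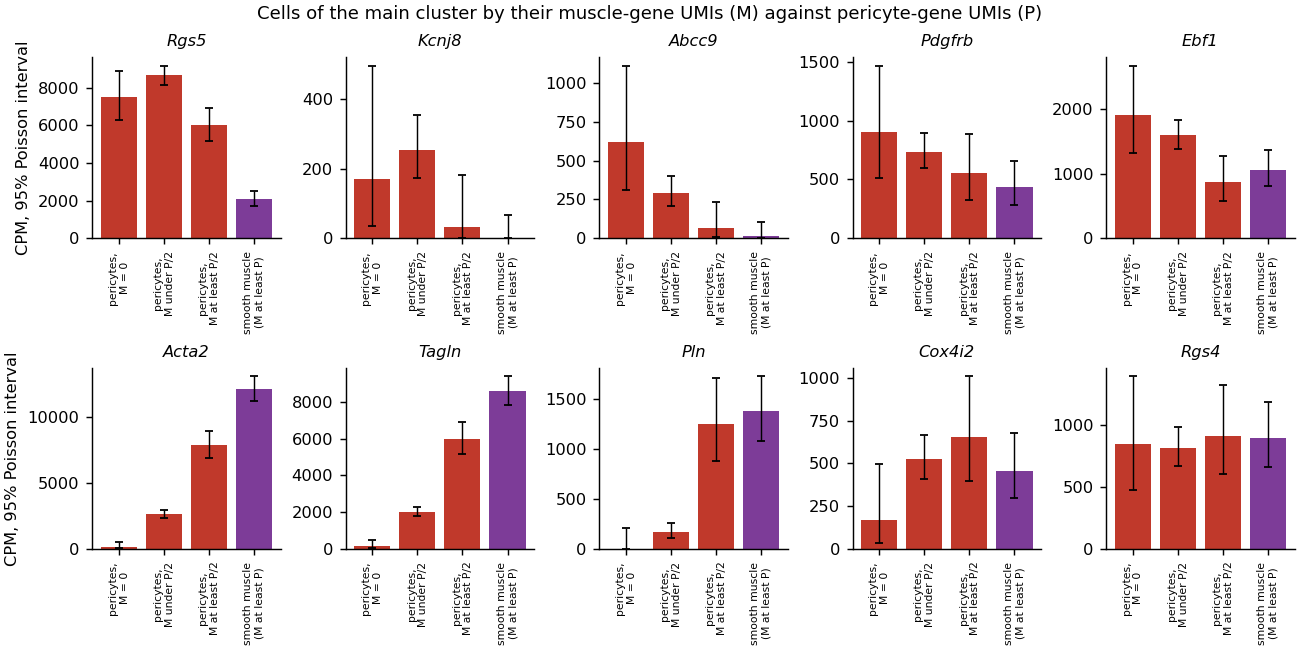
Levels in CPM (bars, with 95% Poisson intervals) of 10 genes in 11 pericytes with no muscle-gene UMI, 44 with M under P/2, 8 with M of P/2 or more and 13 smooth muscle cells, all of the main cluster. Acta2, Tagln and Pln are higher from left to right, Pdgfrb and Abcc9 are lower, and Rgs4 stays between 816 and 915 CPM; Rgs5, Kcnj8 and Abcc9 belong to the rule.

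In the GFP-low libraries the rule found 25 of 4834 cells (0.517%, exact 95% interval 0.335% to 0.763%) and 12 of 6025 (0.199%, 0.103% to 0.348%), against 1.12% in whole mesenchyme. P reached 14 and 9 UMIs there, against 82 in whole mesenchyme. The 25 cells of replicate 1 had 0 UMIs of Cox4i2, Vtn and Higd1b, Pdgfrb at 111 CPM against 525 CPM in the whole mesenchyme pericytes, and Dcn at 11386 CPM against 2420.0 CPM. Cspg4 was at 60.9 CPM in those 25 cells, against 171 CPM in the whole mesenchyme pericytes. In replicate 2 the 12 cells had 7 UMIs of Pdgfrb, 1 of Vtn, 1 of Cspg4 and 0 of Cox4i2.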

How the data were processed

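The authors deposited raw UMI counts per gene and barcode for 3 single-cell libraries, with all barcodes kept; per the submitters' processing notes they used Cell Ranger 3.0.2 and mm10. The other samples of the series were not used here. Counts were summed over the cells of each class and scaled to CPM in Python 3.11.15 with numpy 2.4.6 and scipy 1.17.1. Levels have exact Poisson intervals, ratios exact conditional binomial intervals and shares exact Clopper-Pearson intervals, all at 95%, and they cover counting error only. A gene was measured when the mean of the class CPM was at least 20, and called at 2-fold; in ratios a count of 0 was replaced by 3 counts. Endothelial cells had at least 2 UMIs of Pecam1 and Cdh5, Adamdec1 fibroblasts at least 0.4% Adamdec1. Clusters came from scanpy 1.11.5 with leidenalg 0.10.2 (2000 variable genes, 30 components, 15 neighbours, resolution 1). No doublet caller was run; pericytes with at most 1 UMI of Pdgfra, Dpt, Lum and Scara5 were used as an alternative. Free RNA was taken from barcodes of 1 to 50 UMIs. The pericytes, the gene lists and the alternatives were chosen with earlier results of these data known, so no list is independent evidence. Genes named are those of the rule, a short list of marker and partner genes, per list up to 4 called genes with the largest ratio in each direction, and outside the lists the 15 or 10 largest ratios. The scripts were tested on simulated counts.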

Additional observations from a re-analysis of the deposited data

How the results depend on the processing

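No paired analysis was possible because the pericytes come from 1 library and no result rests on a test. Of 1750 ratios of 115 named genes recomputed under the alternatives, 1270 stayed within the counting interval of the main value, 444 moved beyond it on the same side of 1 or without having been called, and 36 called ratios turned round; the cause was not tested. The share of pericytes was 0.28% when a pericyte could hold no muscle UMI, and the other alternatives left it inside its interval. The counts of genes that differed by more than 1.5 times are as follows. Against smooth muscle cells, 935 genes were higher and 1015 lower for pericytes with no muscle UMI, 1123 and 1268 with cells thinned to 1000 UMIs, 257 and 272 with a mean of at least 50 CPM, 1499 and 1434 with no limit on the level, and 175 and 140 at 4-fold. The lower genes were 962 for pericytes with at most 1 fibroblast UMI and 974 for those of the main cluster. With the 13 smooth muscle cells of the main cluster as the class, an alternative chosen after seeing the data, 983 genes were higher and 1547 lower. Against all other cells, 1118 were higher and 985 lower with thinned cells, 249 and 256 with at least 50 CPM, 1958 and 1240 with no limit, 195 and 115 at 4-fold, and 996 and 893 with at most 1 fibroblast UMI; the lower genes were 864 with P of 10 or more and 916 in the main cluster. In log2 ratios to smooth muscle cells, Grem1 and Fbln1 turned to -1.58 and -1.66 with P of 10 or more, to -1.52 and -2.19 in the main cluster and to -1.90 and -2.02 with at most 1 fibroblast UMI, and Fst against all other cells to -1.59 in the main cluster and -2.56 with at most 1 fibroblast UMI. Thinning turned Jag1 to -1.21 and Esam to -0.39. Smooth muscle cells held to the exclusion limits turned Grem1 to -0.54, Wnt4 to 0.13, Kcna5 to -0.71, Nrip2 to -0.65, Hey2 to -0.72, Pln to -0.93, Gja1 to 2.64, Itga7 to -0.13, Cpe to -0.44, Npy1r to -0.74 and Bmp4 to 0.0147. The 19 pericytes with no muscle UMI, 8 of them outside the main cluster, turned Nes to -1.71, Lpar1 to 0.19, Nrip2 to -0.00833, Pln to -1.03, Ntn4 to -0.55, Angpt2 to -0.19, Npy1r to -0.97, Bmp4 to 0.22, Esam to -1.53 and Mcam to -1.03, and against all other cells Nes to -0.68, Ntn4 to -0.25, Lum to 0.0249, Esam to -1.19 and Acta2 to -0.54. Depth sets the limit: 76 cells hold 268601 UMIs, so a count of 0 is read as under 11.2 CPM, the intervals carry no variation between animals, and receptors with few UMIs have wide ratios.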
